A study of Mus musculus with 32 samples.

Results

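Oxidative phosphorylation genes of the mouse striatum were examined in 32 mice of 4 genotypes. The genes were chosen by symbol among the protein-coding genes of the count table: symbols opening with Nduf, Uqcr, Cox4 to Cox8 or Atp5, the 4 complex II genes Sdha to Sdhd, and the mitochondrially encoded genes opening with mt-Nd, mt-Co or mt-Atp. They came to 106 of 54532 genes, 94 of them nuclear and 12 encoded in mitochondrial DNA. The symbol rule itself used no measured value, but it was chosen with earlier results of these data known. mt-Cytb, the mitochondrially encoded subunit of complex III, lies outside these symbols and is given separately.

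Oxidative phosphorylation is how mitochondria make most of the ATP of a neuron. Complex I takes electrons from NADH and complex II takes them from succinate, complex III passes them to cytochrome c, and complex IV hands them to oxygen. The protons pumped by complexes I, III and IV return through the ATP synthase, whose F0 part turns in the membrane and whose F1 part makes the ATP. A few core subunits are encoded by the small circular mitochondrial genome and all the others by nuclear genes, so the complexes need both genomes. In Huntington's disease, energy metabolism of the striatum has long been a subject of study.

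The mice were wild-type, Msh3-/-, zQ175 and zQ175:Msh3-/-, 8 per genotype, all 6 months old and all littermates of one breeding scheme on a C57BL/6J background. zQ175 mice carry a knock-in of an expanded CAG repeat in the endogenous Htt gene, so that mutant huntingtin is made wherever Htt is normally active, and the Msh3 deletion is a germline Cas9 deletion of exons 3 to 8, held as 1 line. There were 4 males and 4 females per genotype except for zQ175:Msh3-/-, with 5 males and 3 females. The whole corpus striatum was sequenced after poly(A) selection, and the libraries held between 12359347 and 25030335 counts. Msh3 had a counts-per-million (CPM) level of 24.5 ± 1.61 (SD, n = 8) in wild-type and 24.4 ± 1.53 in zQ175 mice, against 11.8 ± 1.2 in Msh3-/- and 12.9 ± 1.15 in zQ175:Msh3-/- mice, with no overlap between carriers and non-carriers of the deletion. The gene count includes the exons outside the deletion. Spiny projection neuron markers were present in every library, at 8035 to 9870 summed CPM over 10 genes in wild-type mice.

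Of the 106 genes, 103 had enough counts to be tested, 91 nuclear and all 12 mitochondrially encoded. The other 3 were a second identifier of Atp5o with at most 2 counts in a mouse, the testis isoform Cox7b2 with at most 4, and Cox8c with none. Calls were made by either of 2 rules, both with edgeR's quasi-likelihood test and Benjamini-Hochberg adjustment over all 16610 genes tested: an adjusted p below 0.05 with a fold change of at least 1.2, or an adjusted p below 0.05 alone.

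The 2 genomes differed widely in level. Per length of transcript, on the transcripts-per-million (TPM) scale, the 12 mitochondrially encoded genes lay between 3322 for mt-Nd6 and 30573 for mt-Co1 in wild-type mice, with a median of 10850, whereas the nuclear genes had a median of 190.5. Even the lowest mitochondrially encoded gene was thus above the highest nuclear one, Cox4i1, at 1277 TPM ± 62.0 (SD, n = 8). Cox4i1 encodes the widely expressed form of complex IV subunit 4. Next among nuclear genes came Cox6a1, at 1157 TPM ± 78.4, and Atp5b, the catalytic beta subunit of F1, at 1157 TPM ± 46.0.

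By role, the nuclear subunits followed an order of level. The 12 widely expressed complex IV genes had a median of 473.1 TPM, the 5 F1 genes 338.7, the 12 F0 and stalk genes 259.6, the 8 complex III genes 257.3, the 7 nuclear core genes of complex I 190.7, its 29 accessory genes 161.1, and the 4 complex II genes 138.1. The 8 assembly factors of complex I, which build the complex without staying in it, were lower, at a median of 34.3 TPM. The 8 tissue-restricted complex IV isoforms, forms best known from muscle, lung, testis or hypoxic cells, had a median of 4.29 TPM. The highest of these, the muscle isoform Cox6a2, reached 12.6 TPM ± 2.22, and its widely expressed counterpart is the 1157 TPM of Cox6a1.

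Within the mitochondrial genome the order in wild-type mice ran mt-Co1, mt-Co2, mt-Atp6, mt-Cytb, mt-Nd1, mt-Nd4, mt-Co3, mt-Nd2, mt-Nd4l, mt-Nd5, mt-Nd3, mt-Atp8 and mt-Nd6, on the TPM scale. mt-Co1 and mt-Co2, core subunits of complex IV, stood at 30573 ± 1049 and 20032 ± 1751 TPM (SD, n = 8). Most neighbours in this order kept their place in all 8 mice, but mt-Atp6 exceeded mt-Cytb in 6 of 8, mt-Nd4 exceeded mt-Co3 in 7, mt-Nd4l exceeded mt-Nd5 in 6, and mt-Nd3 exceeded mt-Atp8 in 5. mt-Nd6, the lowest, is the one gene among them on the opposite strand. These levels come from poly(A)-selected libraries and so include how well each transcript was captured by its tail.

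Some of these mitochondrially encoded genes share bases, so that a read in the shared stretch belongs to either. mt-Nd4l and mt-Nd4 share 7 bases, mt-Atp6 and mt-Co3 share 1, and mt-Nd5 and mt-Nd6 share 14 on opposite strands. The longest overlap, 43 bases at chrM:7927-7969 on the plus strand of GRCm38.p6, joins the genes of the ATP synthase subunits mt-Atp8 and mt-Atp6, which are read in different frames. It is printed here because it is the stretch in which the counts of these neighbouring genes are least separable. Capitals mark the first codon of mt-Atp6 and the stop codon of mt-Atp8.
mt-Atp8 and mt-Atp6 shared bases: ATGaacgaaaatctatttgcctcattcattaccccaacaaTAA

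**Figure D1:**
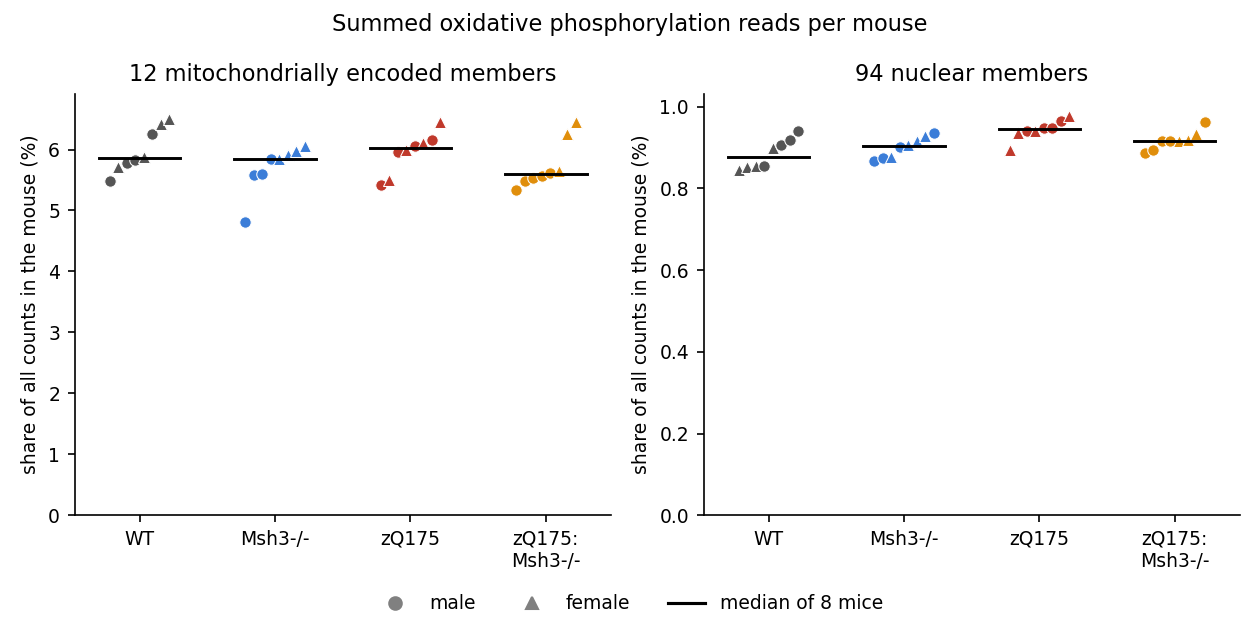
Summed counts of the 12 mitochondrially encoded and the 94 nuclear genes as a percent of all gene counts, 1 point per mouse with the median of each genotype as a line. The mitochondrial sum overlaps between all 4 genotypes, between 4.82% and 6.50%, and the nuclear sum lies between 0.844% and 0.976%.

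Together the 12 mitochondrially encoded genes took 5.49% of all counts in the lowest wild-type mouse, 5.86% at the median and 6.50% in the highest. The corresponding lowest, median and highest shares were 4.82%, 5.85% and 6.05% in Msh3-/-, 5.42%, 6.03% and 6.46% in zQ175, and 5.34%, 5.59% and 6.46% in zQ175:Msh3-/- mice. All 4 ranges overlapped, and the lowest value of all belonged to a single Msh3-/- male. For the 94 nuclear genes the shares were 0.844%, 0.876% and 0.939% in wild-type, 0.867%, 0.903% and 0.935% in Msh3-/-, 0.893%, 0.944% and 0.976% in zQ175, and 0.886%, 0.916% and 0.963% in zQ175:Msh3-/- mice. After TMM normalization, which gives each library 1 scaling factor, the mean nuclear sums were close. They came to 9062 CPM ± 321 (SD, n = 8) in wild-type and 9243 ± 242 in zQ175 mice, and without Msh3 to 9194 ± 234 in Msh3-/- and 8977 ± 228 in zQ175:Msh3-/- mice. These sums were given no test.

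The first comparison asked what the mutant Htt allele alone did to these genes, in zQ175 against wild-type mice. Few of them moved. Atp5g1, one of the genes for the c subunit that forms the rotating ring of the ATP synthase, rose, and Cox4i2, the oxygen-responsive isoform of complex IV subunit 4, fell. At an adjusted p alone, Ndufs3, a core subunit of complex I, and mt-Nd2, a membrane subunit of the same complex, fell as well, and Ndufv1, Atp5b, Atp5o and Ndufb6 rose by at most 1.09-fold.

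By both thresholds, 2 of the 103 genes (1.94%) were called, where 11.6% of all genes tested were called. At an adjusted p below 0.05 alone, 8 genes (7.77%) were called, 5 higher and 3 lower, against 26.5% of all genes, 13.0% higher and 13.5% lower. The nuclear genes had a median log2 fold change of 0.02, with 37 of 91 estimates below 0, and the mitochondrially encoded genes one of -0.10, with 11 of 12 below 0, beside 0.01 over all genes. On the TPM scale, by limma, the median over all genes was itself at 0.07, that of the nuclear genes at 0.08 and that of the mitochondrially encoded genes at -0.05. For 90 of the 103 genes (87.4%) the 95% interval of the fold change lay within 1.2-fold in either direction, which held for 46.6% of all genes. The median standard error was 0.04 over the 103 genes and 0.07 over all genes.

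Spiny neuron markers moved in the same comparison: 9 of 10 were lower, and their sum ran from 4397 to 5693 CPM in zQ175 mice against 8035 to 9870 in wild-type, without overlap. Of the other marker lists, 4 of 7 astrocyte, 2 of 6 microglial, 3 of 5 endothelial and 1 of 6 oligodendrocyte genes were lower at an adjusted p below 0.05, and none of the cortical or thalamic, choroid plexus and erythrocyte genes was called. The 5 cortical or thalamic genes, from neighbouring tissue, had a median log2 fold change of 0.51, with 1 below 0. Their median standard error was 0.45. Their sum had a median of 183 CPM in wild-type and 246 CPM in zQ175 mice, in overlapping ranges. Penk, a neuropeptide gene of the indirect pathway neurons, fell to 0.400-fold, far outside the range of the oxidative phosphorylation genes. No marker was at 0 in any genotype. In whole striatum, fewer cells of a type and less RNA per cell cannot be told apart, and the part of cell makeup in the values below was not tested.

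**Figure D2:**
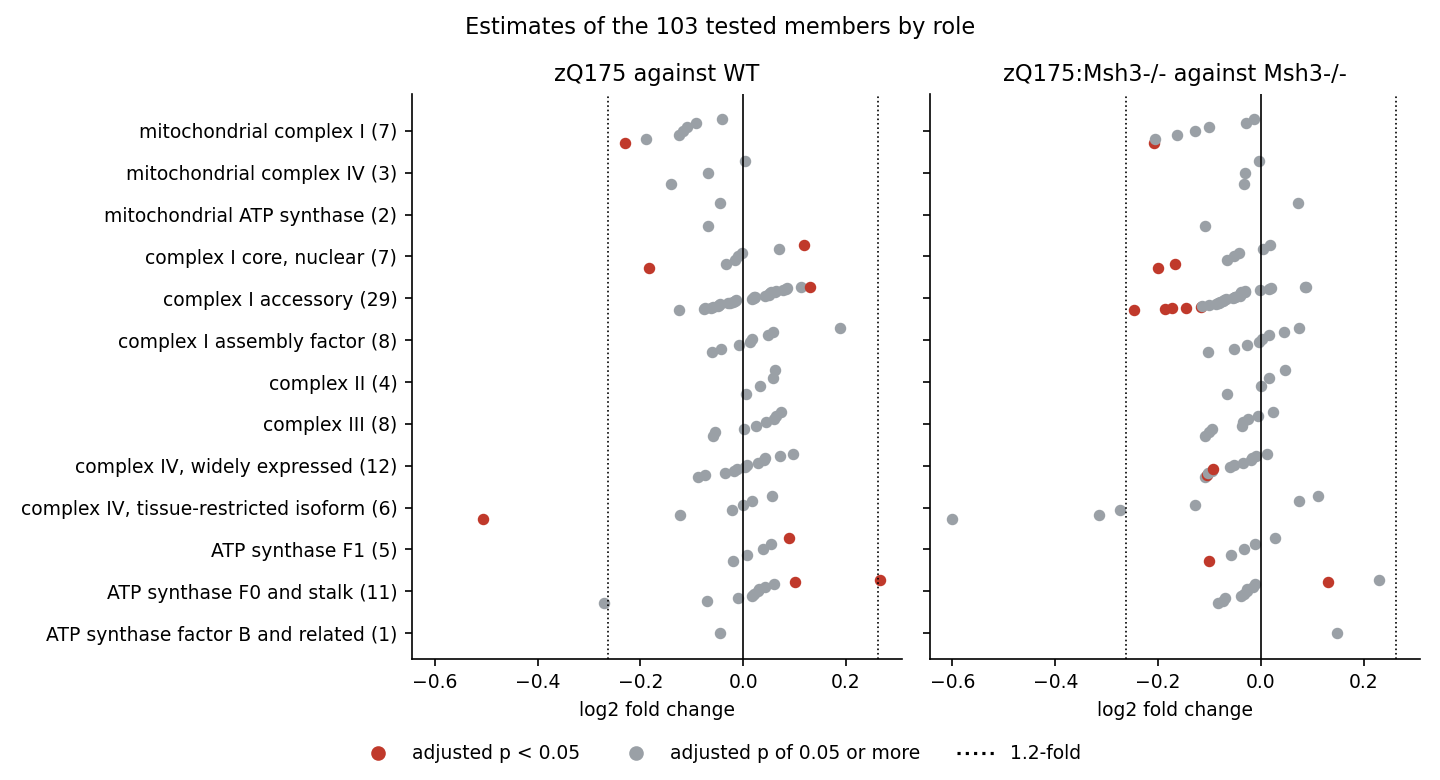
Log2 fold changes of the 103 tested genes by role, 1 point per gene, in zQ175 against wild-type and in zQ175:Msh3-/- against Msh3-/- mice, with the 1.2-fold limits as dotted lines and genes of an adjusted p below 0.05 in red. Most points lie within 1.2-fold of 0, and the red points past it are Atp5g1 and Cox4i2 in the first comparison.

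The c subunit of the ATP synthase has 3 genes, Atp5g1, Atp5g2 and Atp5g3, which encode the same mature protein behind different import sequences. Atp5g1 (ENSMUSG00000006057) lies at chr11:96068852-96075670. Its lowest, median and highest values were 89.6, 106.8 and 118.0 CPM in wild-type mice and 119.1, 126.3 and 136.7 CPM in zQ175 mice. Every zQ175 mouse was above every wild-type mouse. The log2 fold change was 0.27 (SE 0.04, adjusted p = 2.26e-06), at the border of the 1.2-fold rule, and the exact two-sided permutation test of 8 against 8 mice gave p = 0.0001554, the smallest it can give. Without wild-type female 3 or 4 or male 4, or zQ175 female 1 or 3, the estimate was 0.24 to 0.26, just under 1.2-fold, with the adjusted p still below 0.05. Its paralogs gave 0.06 (SE 0.03, adjusted p = 0.214) for Atp5g3 and -0.27 (SE 0.17, adjusted p = 0.248) for Atp5g2, which had only 9.98 CPM at the wild-type median.

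As the 3 genes encode 1 protein, their shares of subunit c transcripts were compared on the TPM scale, a measure added after the gene values were seen. Atp5g1 made up 31.5% ± 1.68 (SD, n = 8) of subunit c TPM in wild-type mice and 36.3% ± 1.04 in zQ175 mice, while Atp5g3 made up 64.9% ± 1.24 and 61.0% ± 1.30. Neither share overlapped between the genotypes, and each gave an exact permutation p of 0.0001554. Atp5g2 went from 3.55% ± 1.03 to 2.66% ± 0.587, with overlapping ranges (exact permutation p = 0.0440). The 3 shares sum to 100%, so they are not independent, and paralogs this alike can trade reads.

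Among the other ATP synthase genes the estimates were small. Of the 11 tested F0 and stalk genes, Atp5g1 and the stalk gene Atp5o (log2 0.10, adjusted p = 0.0124) were called at an adjusted p alone. Of the 5 F1 genes only Atp5b was, at log2 0.09 (SE 0.03, adjusted p = 0.0114). Atp5b was 1 of 2 reference genes, with Eif4a2, in the study's quantitative PCR of Msh3. That assay was shown for cortex of Msh3 knockout mice at 8 weeks of age, not for zQ175 striatum. Atp5b had lowest, median and highest values of 903.6, 948.1 and 1008 CPM in wild-type and 963.8, 1017 and 1056 CPM in zQ175 mice. The ranges overlapped, although all 8 zQ175 mice were above the wild-type median. Atp5s, a gene for a coupling factor related to the synthase, stood at log2 -0.05 (adjusted p = 0.646).

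Complex I, the largest complex, gave the clearest fall and also a rise. Ndufs3 (ENSMUSG00000005510; chr2:90894634-90904827) encodes a subunit of its hydrophilic arm. It measured 80.8, 83.3 and 92.4 CPM in the lowest, median and highest wild-type mouse and 68.4, 75.1 and 77.4 CPM in the zQ175 mice. The 2 sets of mice did not overlap. Its log2 fold change was -0.18 (SE 0.03, adjusted p = 3.93e-05, exact permutation p = 0.0001554), short of 1.2-fold. Kbtbd4, which overlaps the start of Ndufs3 on the opposite strand and could share reads with it if strand was ignored in counting, stood at log2 -0.00 (SE 0.04) in the same comparison. Atp5g1 and Ndufs3 were the only nuclear genes of the 91 (2.20%) without overlap between the genotypes, where 6.63% of all genes tested had none.

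Ndufv1, the NADH-binding core subunit, went the other way, from a median of 121.0 to 132.7 CPM, at log2 0.12 (SE 0.03, adjusted p = 0.00612). The other 5 nuclear core genes were within log2 -0.03 and 0.07 and were not called. Of the 29 accessory genes, only Ndufb6 was called, at log2 0.13 (adjusted p = 0.0328), and the median over the 29 was 0.02. None of the 8 assembly factors was called. Neither was any complex II gene, where Sdha, the succinate-oxidizing subunit, gave log2 0.06 (adjusted p = 0.0829), nor any of the 8 complex III genes, where Uqcr11, the highest of them per length, gave 0.02 (adjusted p = 0.721).

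For complex IV, the 12 widely expressed genes had a median log2 fold change of 0.01 and no call. Cox4i1 measured 381.4, 412.4 and 450.2 CPM in wild-type and 374.1, 416.7 and 442.6 CPM in zQ175 mice (log2 0.01, adjusted p = 0.908). Its isoform Cox4i2 (ENSMUSG00000009876), a gene of low count, measured 1.78, 2.14 and 3.11 CPM in wild-type mice and 1.03, 1.69 and 2.18 CPM in zQ175 mice. Most zQ175 mice were below the wild-type median, with overlapping ranges. The log2 fold change was -0.51 (SE 0.15, adjusted p = 0.0113, exact permutation p = 0.00653). In females alone it was -0.14 and not called. Summed endothelial markers were lower too, at 188 to 215 CPM in wild-type and 135 to 188 CPM in zQ175 mice, ranges that overlapped slightly. Astrocyte sums were also lower, at 4221 to 4500 CPM in wild-type and 3545 to 3800 CPM in zQ175 mice, as were the spiny neuron sums. The part of any of these in the value was not tested. The other tested tissue-restricted isoforms, Cox6a2, Cox6b2, Cox7a1, Cox8b and Ndufa4l2, were not called, with estimates between -0.12 and 0.06 and standard errors of 0.12 to 0.49.

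Among the mitochondrially encoded genes only mt-Nd2 was called. mt-Nd2 (ENSMUSG00000064345; chrM:3914-4951) encodes a proton-pumping membrane subunit of complex I. Its lowest, median and highest values were 3846, 4325 and 5228 CPM in wild-type mice and 3339, 3752 and 4155 CPM in zQ175 mice. All 8 zQ175 mice were below the wild-type median, and the ranges overlapped. The log2 fold change was -0.23 (SE 0.06, adjusted p = 0.00169, exact permutation p = 0.00233). In males alone it was -0.20 with an adjusted p of 0.0511, and in females alone -0.26 with one of 0.00852.

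The other mitochondrially encoded genes gave estimates between -0.19 for mt-Nd3 and 0.00 for mt-Co1, none called. By complex, the median was -0.12 over the 7 genes of complex I, -0.07 over the 3 of complex IV and -0.06 over the 2 of the ATP synthase. mt-Co1 measured 19250, 20181 and 21918 CPM in wild-type and 18923, 20661 and 21777 CPM in zQ175 mice. mt-Cytb stood at log2 -0.08 (SE 0.04, adjusted p = 0.172). No mitochondrially encoded gene had zQ175 and wild-type mice without overlap.

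**Figure D3:**
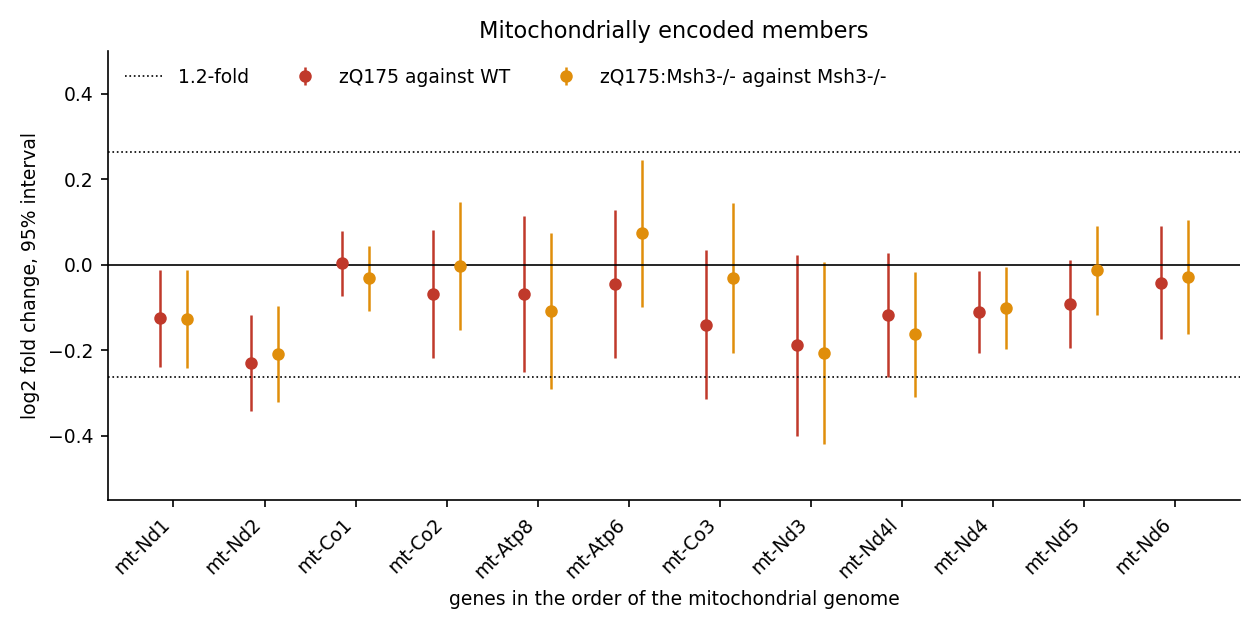
Log2 fold changes of the 12 mitochondrially encoded genes with 95% intervals, in zQ175 against wild-type and in zQ175:Msh3-/- against Msh3-/- mice. mt-Nd2 lies at -0.23 and -0.21, and most other intervals reach 0.

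Because the mitochondrial genes are transcribed together from few promoters, each one was also given as a percent of the 12 genes' summed counts, a measure that a change common to all 12 leaves as it is. It was added after the gene values were seen, for all 12 genes. mt-Nd2 made up 6.80% to 7.76% of the sum in wild-type mice (mean 7.10% ± 0.327, SD, n = 8) and 5.84% to 6.60% in zQ175 mice (6.37% ± 0.246). The genotypes did not overlap on this scale, and the exact permutation p was 0.0001554. mt-Co1, the largest share, went from 33.4% ± 0.774 to 35.2% ± 0.642 (exact permutation p = 0.000466). Of the 12 shares, 4 had an exact permutation p below 0.05 without adjustment, and only that of mt-Nd2 did not overlap. The shares sum to 100%, so a lower share of one gene raises the rest.

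The second comparison asked the same of the mutant allele on an Msh3-null background, in zQ175:Msh3-/- against Msh3-/- mice, animals that share none with the first. Here 11 of the 103 genes were lower (10.7%), by less than 1.2-fold, where 12.3% of all genes tested were. Complex I and its assembly factors hold 51 of the 103 and gave 8 of the 11 (15.7%), and the other 52 genes gave 3 (5.77%), a difference that was not tested. Ndufs3, Ndufa1, Ndufb10, Ndufa7, mt-Nd2, Ndufs7, Ndufa13 and Ndufb2 of complex I fell, as did Cox7a2l and Cox8a of complex IV and Atp5e of the ATP synthase, and Atp5g1 rose again. Of these, all but mt-Nd2, Atp5g1, Ndufs7 and Cox8a were named because they were called, after their values were seen.

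By both thresholds, none of the 103 genes was called by edgeR's quasi-likelihood test, where 10.6% of all genes were. An unadjusted p below 0.05 was reached by 26 of the 103, beside 5803 of all 16610 genes. DESeq2 also called none by both thresholds, with 31 of the 103 at an unadjusted p below 0.05. At an adjusted p below 0.05 alone, edgeR called 12 genes (11.7%), 1 higher and 11 lower, against 24.1% of all genes, 11.8% higher and 12.3% lower. By this rule DESeq2 called 16 of the 103, and its share over all genes is not given here. The median log2 fold change was -0.04 over the nuclear genes, 71 of 91 below 0, and -0.07 over the mitochondrially encoded genes, 11 of 12 below 0, beside 0.01 over all genes. This placement depends on the scale: by limma on TPM the nuclear median was 0.03, with 33 of 92 below 0, while the median of all genes was 0.09. On the same TPM scale the mitochondrial median was 0.00, with 6 of 12 below 0. Both medians were thus below that of all genes on both scales, and their sign was not the same on both. The marker lists had shifted too, with 9 of 10 spiny neuron, 4 of 7 astrocyte, 4 of 6 microglial, 1 of 5 endothelial and 1 of 6 oligodendrocyte genes lower. None of the 5 cortical or thalamic genes was called, at a median log2 of 0.42 (median standard error 0.44), with 2 below 0. Their sum had a median of 207 CPM in Msh3-/- and 300 CPM in zQ175:Msh3-/- mice, in overlapping ranges. The part of any marker list was not tested.

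Ndufs3 measured 77.4, 84.1 and 88.9 CPM in the lowest, median and highest Msh3-/- mouse and 69.1, 73.5 and 76.5 CPM in the zQ175:Msh3-/- mice. Again the genotypes did not overlap. The log2 fold change was -0.20 (SE 0.03, adjusted p = 1.28e-05, exact permutation p = 0.0001554). Ndufa1, a small membrane subunit encoded on the X chromosome, measured 39.1, 43.1 and 45.3 CPM against 33.4, 36.5 and 37.7 CPM, at log2 -0.25 (SE 0.05, adjusted p = 0.000269). Its ranges did not overlap either, and in zQ175 against wild-type mice its estimate was -0.13 (adjusted p = 0.0563). Atp5e, the epsilon subunit of F1, measured 61.0, 63.6 and 67.0 CPM against 57.7, 59.3 and 60.8 CPM, at log2 -0.10 (SE 0.04, adjusted p = 0.0350). These were the 3 nuclear genes of 91 (3.30%) without overlap, beside 5.39% of all genes.

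By role, 5 of the 29 accessory genes of complex I and 2 of its 7 nuclear core genes were lower, and 25 of the 29 accessory estimates were below 0 with a median of -0.05. Ndufs7, the core subunit next to the quinone site, went from a median of 85.7 to 77.5 CPM (log2 -0.17, adjusted p = 0.00541). Of the 12 widely expressed complex IV genes, 11 estimates were below 0, and Cox7a2l (log2 -0.10, adjusted p = 0.0245) and Cox8a (log2 -0.09, adjusted p = 0.0428) were called. Cox8a lost its call when any of 9 single mice was left out. No gene of complex II, complex III, the assembly factors or the tissue-restricted isoforms was called. Cox4i2 gave -0.27 (SE 0.15, adjusted p = 0.210).

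Atp5g1 measured 104.1, 107.9 and 114.6 CPM in Msh3-/- and 113.1, 118.9 and 124.7 CPM in zQ175:Msh3-/- mice. All 8 zQ175:Msh3-/- mice were above the Msh3-/- median, with a slight overlap. The log2 fold change was 0.13 (SE 0.04, adjusted p = 0.0131, exact permutation p = 0.000311). On the TPM share of subunit c it went from 32.3% ± 1.2 to 35.6% ± 0.983, and Atp5g3 from 64.6% ± 1.13 to 60.8% ± 0.930, without overlap and with an exact permutation p of 0.0001554 for each. Atp5g2 did not follow, at 3.11% ± 0.644 and 3.55% ± 0.636 (exact permutation p = 0.191).

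**Figure D4:**
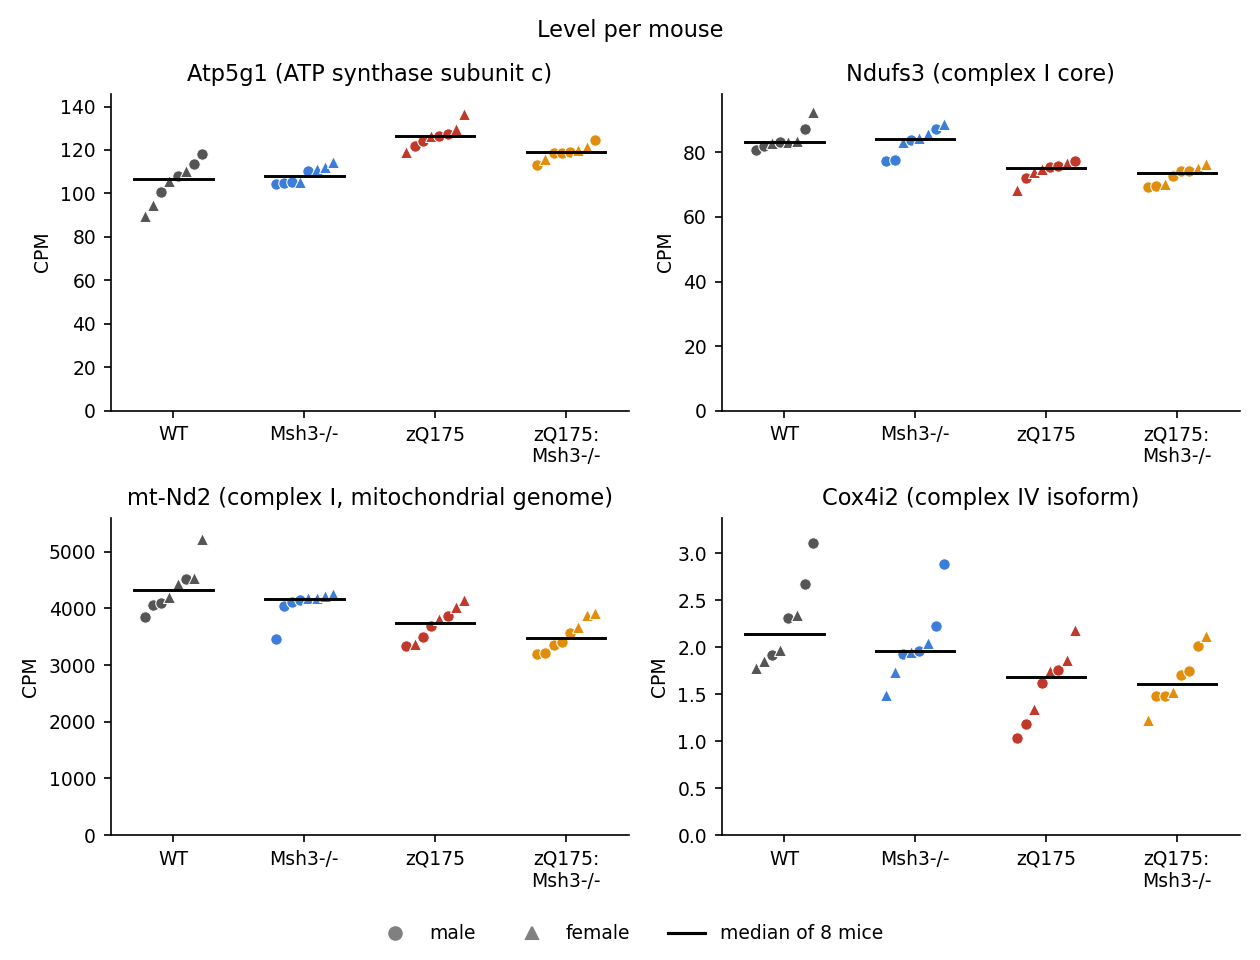
CPM of Atp5g1, Ndufs3, mt-Nd2 and Cox4i2 in each mouse, by genotype, with the median as a line. The zQ175 mice lie between 119.1 and 136.7 CPM for Atp5g1, above the wild-type mice, and between 68.4 and 77.4 CPM for Ndufs3, below them.

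mt-Nd2 measured 3453, 4167 and 4264 CPM in Msh3-/- and 3194, 3488 and 3919 CPM in zQ175:Msh3-/- mice. All 8 zQ175:Msh3-/- mice were below the Msh3-/- median. Its log2 fold change was -0.21 (SE 0.06, adjusted p = 0.00492, exact permutation p = 0.00280). In males alone it was -0.23 (adjusted p = 0.0114) and in females alone -0.14 (adjusted p = 0.258). As a percent of the 12 genes' counts it was 7.0% ± 0.106 in Msh3-/- and 6.28% ± 0.216 in zQ175:Msh3-/- mice, without overlap (exact permutation p = 0.0001554), which is 0.897 of the control share in each of the 2 comparisons. mt-Nd1 was the other share without overlap, at 9.98% ± 0.172 and 9.48% ± 0.155. mt-Co1, at 34.8% ± 1.24 and 35.3% ± 0.978, did not repeat its shift (exact permutation p = 0.412).

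**Figure D5:**
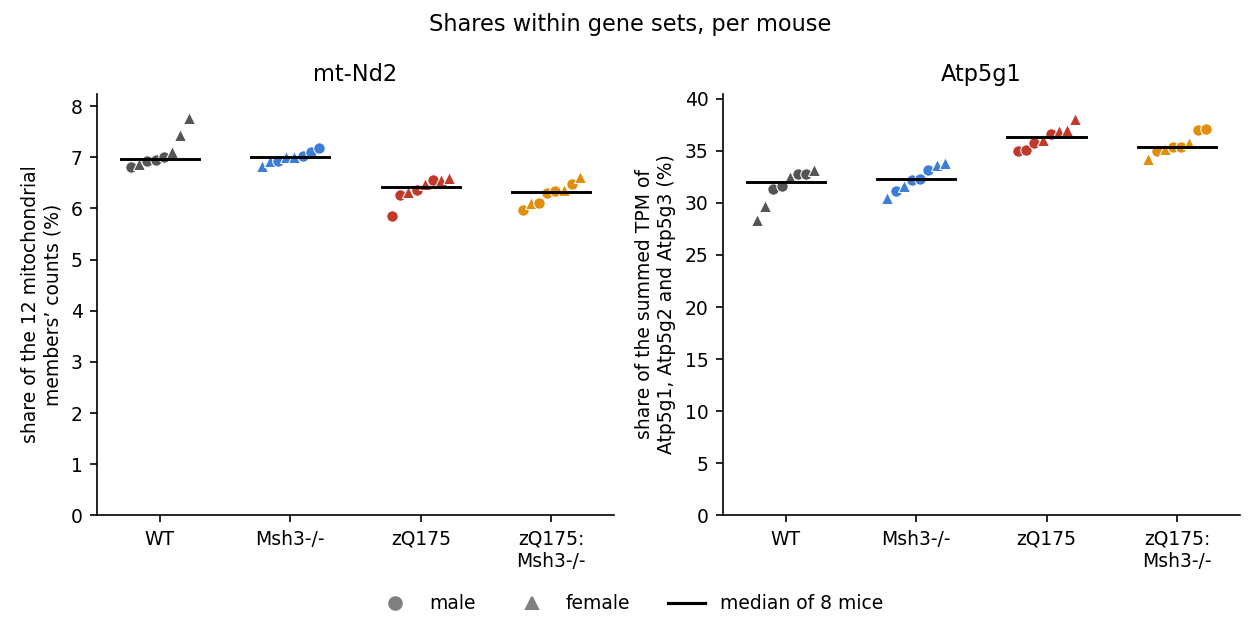
Percent of the 12 mitochondrially encoded genes' counts taken by mt-Nd2, and percent of subunit c TPM taken by Atp5g1, 1 point per mouse by genotype. Both zQ175 genotypes lie apart from their controls in each panel, at 5.84% to 6.62% for mt-Nd2 and 34.2% to 38.1% for Atp5g1.

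Across both comparisons, which have no mouse in common, 3 genes were called at an adjusted p alone: Atp5g1, Ndufs3 and mt-Nd2, each in the same direction. They are 37.5% of the 8 genes called in the first and 25.0% of the 12 called in the second, below the corresponding shares over all genes tested, where 2831 were called in both, 64.4% of the 4398 called in the first and 70.7% of the 4002 called in the second. The test of the difference between the 2 effects, the interaction of zQ175 with Msh3 loss, called none of the 103 genes by edgeR's quasi-likelihood test, nor any of all 16610 (0.00%), with 18 of the 103 at an unadjusted p below 0.05. DESeq2 called none, with 19. The count of all genes at an unadjusted p below 0.05 is not given here for the interaction, so the 18 and 19 have no background to be read against. Atp5g1 gave an interaction of -0.13 (SE 0.06, adjusted p = 0.999), Ndufs3 -0.02 and mt-Nd2 0.02. The nuclear median of the interaction was -0.06, with 81 of 91 estimates below 0, and that of the mitochondrially encoded genes 0.01, beside 0.00 over all genes. The 91 estimates come from the same libraries and are not independent.

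The third comparison set zQ175:Msh3-/- beside wild-type mice and shares its wild-type animals with the first. mt-Nd2 (log2 -0.31, adjusted p = 5.30e-05), mt-Nd3 (-0.33, adjusted p = 0.0164) and Cox4i2 (-0.44, adjusted p = 0.0294) fell past both thresholds, 2.91% of the 103 genes where 12% of all genes were called. At an adjusted p alone 12 genes (11.7%) were called, 11 of them lower, against 26.9% of all, 13.3% higher and 13.6% lower. Of the 12 mitochondrially encoded genes 5 were lower, and all 5, mt-Nd1, mt-Nd2, mt-Nd3, mt-Nd4 and mt-Nd4l, encode complex I subunits. mt-Nd3 measured 615.8, 701.2 and 859.9 CPM in wild-type and 428.6, 563.6 and 738.0 CPM in zQ175:Msh3-/- mice, ranges that overlapped. mt-Cytb was lower as well, at log2 -0.14 (adjusted p = 0.00834). All 12 mitochondrial estimates were below 0, with a median of -0.16, and the nuclear median was -0.03. By limma on TPM, 10 of 12 mitochondrial estimates were below 0 with a median of -0.09, and the nuclear median turned to 0.05, with 23 of 92 below 0, beside 0.09 over all genes. In females alone the nuclear median was 0.02 and the mitochondrial median -0.09, with 9 of 12 below 0. In males alone they were -0.06 and -0.19, with 12 of 12 mitochondrial estimates below 0. With sex in the model the mitochondrial median was -0.15.

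The remaining genotype comparisons asked what Msh3 loss did, with and without the mutant allele. Neither gave a call among these genes. In zQ175:Msh3-/- against zQ175 mice edgeR's quasi-likelihood test called 0 of 103, and 0.00602% of all genes, 1 gene. At an unadjusted p below 0.05 it had 13 of the 103, beside 614 of all 16610 genes. DESeq2 called 0 of the 103, with 13 at an unadjusted p below 0.05. In Msh3-/- against wild-type mice edgeR called 0, beside 0.00602% of all genes. It had 2 of the 103 at an unadjusted p below 0.05, beside 846 of all 16610 genes. DESeq2 called 0, with 3 at an unadjusted p below 0.05. The nuclear medians were -0.05, 80 of 91 below 0, and 0.02, and the mitochondrial medians -0.07 and -0.09. Over all genes, 48.3% of estimates were below 0 in zQ175:Msh3-/- against zQ175 mice. In zQ175:Msh3-/- against zQ175 the mitochondrial median was 0.03 in females alone, with 4 of 12 below 0, and -0.11 in males alone. In Msh3-/- against wild-type the nuclear median was -0.03 in males alone and 0.05 in females alone. The mitochondrial median of Msh3-/- against wild-type rests in part on the Msh3-/- male with the lowest mitochondrial share, without which it was -0.05.

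Sex was compared because the labels give it, with females set against males over all genotypes. All 12 mitochondrially encoded genes were higher in females, with log2 differences of 0.06 to 0.24 and a median of 0.13. None passed the adjustment by edgeR's quasi-likelihood test (lowest adjusted p = 0.0565), although all 12 had an unadjusted p below 0.05. DESeq2 called mt-Nd2 (log2 0.13, adjusted p = 0.0175) and mt-Nd3 (log2 0.23, adjusted p = 0.0154). By edgeR's quasi-likelihood test, which called none of these genes, 0.313% of all genes tested were called. The share over all genes by DESeq2 is not given here. The nuclear genes had a median difference of 0.00, with 49 of 91 higher in females and 8 at an unadjusted p below 0.05. The count of all genes at an unadjusted p is not given here for the sexes. The 12 genes share transcripts and libraries, so that their common direction is 1 observation and not 12.

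By genotype, the mitochondrial share of counts in females and males had medians of 6.15% and 5.80% in wild-type, 5.94% and 5.59% in Msh3-/-, 6.05% and 6.01% in zQ175, and 6.26% and 5.54% in zQ175:Msh3-/- mice. The sexes did not overlap in Msh3-/- and zQ175:Msh3-/- mice and did in the other genotypes. With sex in the model, the mitochondrial median of the first comparison stayed at -0.10 and that of the second was -0.06. In females alone these medians were -0.14 and -0.01, and in males alone -0.08 and -0.07. Whether the zQ175 effect differed between the sexes was tested directly: edgeR's quasi-likelihood test called none of the 103 genes, with 2 at an unadjusted p below 0.05, as did DESeq2, and none of all genes (0.00%).

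Genes around oxidative phosphorylation were counted from lists drawn by function, at an adjusted p alone, in the first and the second comparison. Of 9 electron carrier and complex III genes outside the symbols above, 2 and 1 were called: Ttc19, a complex III factor, was lower in both (log2 -0.21 and -0.12), and Cyc1, cytochrome c1, rose in the first (0.18, adjusted p = 0.000536). Of 34 tested assembly factors of the other complexes, 4 and 4 were called, among them Atpaf1, a chaperone of F1, lower in both (-0.12 and -0.18), and the copper handling genes Cox19, higher in the first (0.20), and Sco2, higher in both (0.30 and 0.45). Of 16 genes of the tricarboxylic acid cycle, 5 were called in the first, all higher, and 4 in the second, 2 higher and 2 lower. Idh3a was higher in both (0.21 and 0.15) and Pdha1 too (0.12 and 0.11), whereas Suclg1 was lower in the second (-0.11, adjusted p = 0.00266).

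Of 29 tested genes of mitochondrial biogenesis and mitochondrial DNA expression, 3 and 7 were called. Esrra, a nuclear receptor that drives many energy genes, was lower in both (log2 -0.14 and -0.22), and Ppargc1b, one of its coactivators, was lower in both as well (-0.30 and -0.35), whereas Pprc1, of the same coactivator family, was higher in the first (0.22, adjusted p = 0.0260) and stood at -0.00 in the second. Of 12 carriers and channels, 4 and 3 were called, with the mitochondrial creatine kinase Ckmt1 lower in both (-0.15 and -0.17) and the aspartate-glutamate carrier Slc25a13 higher in the first (0.31). Of 16 glycolysis genes, 5 and 7 were called, with Gpi1 (0.20 and 0.13) and Hk1 (0.20 and 0.16) higher in both and Aldoc (-0.20 and -0.24), which is also an astrocyte marker, lower in both. Each share is to be read beside the 26.5% and 24.1% of all genes called at an adjusted p in these comparisons.

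Nuclear oxidative phosphorylation genes are known targets of NRF1 and of the ETS factor GABPA, so RefSeq promoters of GRCm38 were searched for the NRF1 motif (GCGCA, any base, then GCGC) and the ETS motif (CCGGAAG), on both strands, from 250 bases before to 50 after each start. Of the 94 nuclear genes 75 had a window, under 74 RefSeq genes. The NRF1 motif was in 19 of the 74 (25.7%) and in 5.19% of all 27025 genes with a window, the ETS motif in 18 (24.3%) and in 9.93%, and either in 33 (44.6%) and in 14.0%. Over the 17492 protein-coding genes with a window, the class from which these genes were chosen, the shares were 7.17% for NRF1, 12.9% for ETS and 18.6% for either. Of the subunit c genes only Atp5g1 was called, and Ndufs3 fell in both comparisons. The 100 bases before the RefSeq start are printed for the subunit c genes and Ndufs3, on the strand of the gene, with motif letters in capitals. RefSeq starts can differ from the gene spans given above. The Ndufs3 stretch and part of the Atp5g1 stretch lie inside those spans.
Atp5g1 (chr11:96075632-96075731, minus strand): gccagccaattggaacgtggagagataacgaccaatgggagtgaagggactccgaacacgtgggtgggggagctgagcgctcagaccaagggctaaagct
Atp5g2 (chr15:102671048-102671147, minus strand): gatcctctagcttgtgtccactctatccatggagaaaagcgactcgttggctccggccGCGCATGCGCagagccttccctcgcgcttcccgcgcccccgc
Atp5g3 (chr2:73911327-73911426, minus strand): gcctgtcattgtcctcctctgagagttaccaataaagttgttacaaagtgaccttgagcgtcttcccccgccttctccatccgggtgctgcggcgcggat
Ndufs3 (chr2:90904722-90904821, minus strand): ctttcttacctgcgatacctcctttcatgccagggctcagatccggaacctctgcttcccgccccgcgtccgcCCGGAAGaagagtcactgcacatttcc

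Atp5g1 held neither motif in its window. Atp5g2 held the NRF1 motif once, opening 42 bases before the start, and Atp5g3 held it once, 12 bases after the start and so outside the printed stretch. Ndufs3 held the ETS motif at 27 bases before the start and again at the start itself. A match of letters is a description and shows no binding.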

How the data were processed

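RNA from the striata of 32 mice was sequenced as paired-end reads after poly(A) selection on an Illumina NovaSeq instrument. The authors deposited raw read counts per gene for every mouse and a second table named for FPKM, whose deposited values sum to the same total in every mouse, as TPM do, and were therefore used as TPM. The build was GRCm38.p6 per the labels. The aligner, the counter, its use of strand and the annotation release are not given in the sources used here, and gene identifiers were matched to GENCODE M21. Poly(A) selection captures transcripts by their tails, which can alter levels between mitochondrial and nuclear genes. The step was common to all genotypes, but whether capture was equal between mice was not tested.

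Counts were tested with edgeR 4.0.16 (R 4.3.3; filterByExpr by genotype, TMM, robust glmQLFit, glmQLFTest) in 1 model of the 4 genotypes, with Benjamini-Hochberg adjustment over the 16610 genes tested. CPM are TMM-normalized. Single genes were also tested with exact two-sided permutation tests of 8 against 8 mice (12870 arrangements, smallest p 0.0001554). Alternatives were DESeq2 1.42.0 without independent filtering, RLE size factors, other count filters, sex as a covariate, each sex alone, only the compared groups, a replicate block, each mouse left out, and limma 3.58.1 on log2(TPM + 0.1) or log2(TPM + 1), where a fold change is on that scale. The scripts were tested on simulated counts.

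Named genes were all mitochondrially encoded ones, nuclear ones past both thresholds in any comparison, the highest in each role by TPM, isoform pairs of complex IV subunits, Atp5b, mt-Cytb, Msh3, and up to 3 per further gene list by adjusted p; other genes named, those called at an adjusted p alone included, were chosen after their values were seen. The genes and lists were chosen with earlier results of these data known. The replicate numbers of the labels did not pair mice: 4 of 45 same-numbered pairs correlated above 0.1, with a median of -0.0044. Common biological variation was 0.0985, and 12359347 to 25030335 counts per mouse set the precision; standard errors are on the log2 scale. Tables and figures were made with Python 3.11.15, pandas 2.3.3, scipy 1.17.1, matplotlib 3.10.9 and numpy 2.4.6.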

Additional observations from a re-analysis of the deposited data

Results flagged for a closer look

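In 13 of 144 sets of 8 mice, 1 mouse stood apart from the other 7 of its genotype by Dixon's gap ratio, above its 95% critical value, where chance gives about 1 in 20, or 7.2 sets. Of the 13, 7 are 1 Msh3-/- male. It was the lowest Msh3-/- mouse in its mitochondrial share of counts, at 4.82% against 5.58% to 6.05% in the others (gap ratio 0.619), and in mt-Atp6 (gap ratio 0.621; 2992 CPM against 4369 to 5503), mt-Nd1 (0.564), mt-Nd2 (0.739; 3453 CPM against 4036 to 4264), mt-Nd4 (0.799), mt-Co1 (0.543) and mt-Co3 (0.636). Without this mouse the mitochondrial median of zQ175:Msh3-/- against Msh3-/- was -0.11 in place of -0.07. These values share a library, and the cause was not tested.

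The other 6 flags were single genes. A zQ175 male was lowest for mt-Nd4l (gap ratio 0.545; 565.1 CPM against 684.2 to 802.8), and a zQ175 female for Atp5g3 (0.661; 172.3 CPM against 191.2 to 201.6). A wild-type male was lowest for Atp5s (0.541), an Msh3-/- male for Cox6a2 (0.623), a wild-type female for Cox8b (0.559, with no count) and a zQ175:Msh3-/- female for Ndufa4l2 (0.573).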

How the results depend on the processing

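Atp5g1, Ndufs3 and mt-Nd2 kept their direction in both zQ175 comparisons under the alternatives run. In zQ175 against wild-type, Atp5g1 ranged from 0.18 to 0.41 (adjusted p below 0.05 in 45 of 45), Ndufs3 from -0.22 to -0.13 (45 of 45) and mt-Nd2 from -0.26 to -0.17 (43 of 44, lost in males alone). In zQ175:Msh3-/- against Msh3-/-, Atp5g1 ranged from 0.10 to 0.27 (44 of 45), Ndufs3 from -0.22 to -0.13 (45 of 45) and mt-Nd2 from -0.24 to -0.14 (43 of 44). In females alone Atp5g1, at 0.10, and mt-Nd2, at -0.14, were not called there (adjusted p = 0.369 and 0.258). In males alone the nuclear median of zQ175 against wild-type was -0.0039 in place of 0.02. The genes past both thresholds in zQ175 against wild-type, 2, were 1 with RLE size factors, with DESeq2, in males alone and in females alone, since Atp5g1 is at the border of 1.2-fold and Cox4i2 was not called in females, and 8 without a fold threshold. At an adjusted p alone the 8 became 5 without a filter on low counts, 3 in males and 10 by DESeq2. They became 34, 34 and 31 by limma on log2(TPM + 0.1), on log2(TPM + 1) and without a filter. On log2(TPM + 0.1) the median was 0.07 over all genes and 0.08 over the nuclear ones. The share of all genes called by the limma fits is not given here, so their counts have no background to be read against. In zQ175:Msh3-/- against Msh3-/-, the 0 past both thresholds became 1 in females, 2, 1 and 2 by the same limma fits and 12 without a fold threshold. The 12 at an adjusted p became 7 in males, 3 in females and 16 by DESeq2. In zQ175:Msh3-/- against wild-type, the 3 became 1 in females, 1 by limma without a filter and 12 without a fold threshold. At an adjusted p alone the 12 became 4 in females, 18 by DESeq2, and 22 and 22 by limma. With the mitochondrially encoded genes left out they became 12 nuclear ones (7 nuclear before). For the sexes, DESeq2 called 2 at an adjusted p in place of 0. Fewer mice entered the fits of 1 sex; the cause of the other changes was not tested.

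Leaving out each mouse in turn gave 1 to 2 genes past both thresholds and 7 to 12 at an adjusted p in zQ175 against wild-type, 0 to 1 and 8 to 17 in zQ175:Msh3-/- against Msh3-/-, and 2 to 4 and 11 to 21 in zQ175:Msh3-/- against wild-type, where the 21 came without wild-type male 4; without Msh3-/- female 2, 1 gene passed both thresholds in the second. The other 3 comparisons stayed at 0 to 0. The replicate numbers did not pair the mice, with 6 of 32 correlating best with their own number; a replicate block gave 2 and 11 genes in zQ175 against wild-type, 0 and 8 in zQ175:Msh3-/- against Msh3-/-, 2 and 11 in zQ175:Msh3-/- against wild-type, and 0 elsewhere.

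Some uncalled genes changed sign by more than 1 standard error, the size needed for a sign change to be counted. In zQ175 against wild-type, the 3 limma fits on TPM gave 0.025 for Ndufs7, 0.045 for Cox8a and 0.023 for Ndufa4. Females alone gave 0.036 for Cox8a, 0.020 for Ndufa4, 0.018 for Ndufaf2, 0.304 for Cox6b2 and 0.299 for Cox7a1, and males alone 0.015 for mt-Co2. In zQ175:Msh3-/- against Msh3-/-, they gave 0.057 for mt-Nd5, 0.040 for mt-Nd6, 0.036 for mt-Co1, 0.041 for Atp5g3, 0.0023 for Ndufb9, 0.017 for Cox4i1 and 0.050 for Cox6a1, with 0.096 for Cox6a2 and 0.727 for Cox8b in males alone and -0.213 for Cox6b2 in females alone. On TPM in place of counts, the median nuclear share was 2.26% for wild-type, 2.38% for zQ175, 2.30% for Msh3-/- and 2.32% for zQ175:Msh3-/- mice, and the median mitochondrial share 13.9%, 14.1%, 13.8% and 13.2% in that order. Depth limits the tissue-restricted complex IV isoforms, at a few CPM, whose standard errors reached 0.49.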
